A study of Mus musculus with 10 samples.

Results

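The early steps of cholesterol synthesis, from acetyl-CoA to squalene epoxide, were followed in mouse liver through 9 genes that were taken by symbol from a table of 24421 genes. In pathway order these were Acat2, Hmgcs1, Mvk, Pmvk, Mvd, Idi1, Fdps, Fdft1 and Sqle. All 9 passed the filter on low counts, which left 11092 genes for testing. Poly(A) RNA of whole liver was sequenced in 10 male C57BL/6 mice that ate freely, a single library per mouse. The labels give an age of 21 weeks, and the study's methods give C57BL/6 J and 20 weeks. The 5 Chow mice received standard chow alone, and the 5 TM5614 mice received the same chow containing TM5614 at 20 mg/kg/day over 10 days. This compound, given by mouth, inhibits PAI-1, the main inhibitor of the plasminogen activators, and the comparison asks how hepatic transcripts differ after this inhibitor. All mice were wild type, so no genetic loss of PAI-1 enters the comparison, and there is a single dose and a single duration.

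Cholesterol is built from acetyl-CoA in the cytosol and endoplasmic reticulum. Acetyl-CoA units are joined to HMG-CoA, which is reduced to mevalonate. Mevalonate is phosphorylated and decarboxylated to the isoprenoid building block isopentenyl diphosphate. This is lengthened to farnesyl diphosphate and squalene, whose epoxide leads on to the sterols. The liver is a major site of this synthesis, and the genes are known targets of SREBP-2, a membrane-bound transcription factor that is released when sterols in the endoplasmic reticulum are low and that commonly acts at promoters together with the CCAAT-binding factor NF-Y.

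Promoter windows of 250 bases before the RefSeq start site (build GRCm38.p6) were found for 6 of the 9 genes, namely Acat2, Hmgcs1, Mvk, Pmvk, Mvd and Idi1. They were searched on both strands for an SRE-like motif, TCNCNCCAC, and for CCAAT, motifs that do not overlap in these windows. The SRE-like motif was found in 1 of the 6 genes, against 5.41% of 32851 RefSeq windows of the same length, and CCAAT was found in 5 of the 6, against 33.8%. These set counts of genes beside shares of windows. The 6 genes had 7 windows, because Pmvk had a further start site, whose window held no match. The Mvk window held 5 CCAAT matches, which 0.213% of all windows reach or exceed, the Hmgcs1 window held 3 (2.79% of windows hold as many or more), and the Mvd and Idi1 windows held 2 each (10.1%). The RefSeq start of Idi1 used here (8885606) lies inside the gene as placed below, which begins at 8885501. Both Idi1 matches lie downstream of that earlier start, and Idi1 is counted among the 5 genes with CCAAT. A match is a stretch of letters and not a shown binding site. The stretches of 4 genes are printed 5′ to 3′ on the strand of the gene, limited to bases outside annotated exons, with the matches in capitals. Hmgcs1 is shown for its SRE-like match, Mvk for its 5 CCAAT matches, Mvd as a gene with a large fall in TM5614 liver and Acat2 as the gene with the smallest fall and no match.
Hmgcs1, chr13:119690101-119690350, plus strand: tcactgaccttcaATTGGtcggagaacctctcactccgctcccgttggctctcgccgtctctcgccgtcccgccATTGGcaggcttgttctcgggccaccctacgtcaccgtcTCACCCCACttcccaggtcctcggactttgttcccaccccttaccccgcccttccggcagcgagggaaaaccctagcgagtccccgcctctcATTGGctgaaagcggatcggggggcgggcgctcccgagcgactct
Mvk, chr5:114444061-114444268, plus strand: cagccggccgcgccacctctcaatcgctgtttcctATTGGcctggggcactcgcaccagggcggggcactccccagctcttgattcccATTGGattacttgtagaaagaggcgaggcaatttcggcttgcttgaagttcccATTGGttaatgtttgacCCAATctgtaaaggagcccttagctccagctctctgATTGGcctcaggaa
Mvd, chr8:122443423-122443672, minus strand: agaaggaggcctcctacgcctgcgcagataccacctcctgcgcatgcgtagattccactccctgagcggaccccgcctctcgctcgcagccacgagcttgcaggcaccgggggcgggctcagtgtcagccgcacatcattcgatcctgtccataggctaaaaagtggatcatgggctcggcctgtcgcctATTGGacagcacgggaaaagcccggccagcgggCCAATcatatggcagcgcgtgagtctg
Acat2, chr17:12960748-12960975, minus strand: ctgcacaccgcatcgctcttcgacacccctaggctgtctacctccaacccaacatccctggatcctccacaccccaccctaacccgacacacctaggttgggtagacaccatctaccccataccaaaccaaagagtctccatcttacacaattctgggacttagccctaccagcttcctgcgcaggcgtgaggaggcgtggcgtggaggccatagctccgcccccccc

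The SRE-like match of Hmgcs1, TCACCCCAC, lay 137 to 129 bases before the start site, between CCAAT matches at 176 to 172 and at 45 to 41 bases. The 208 bases printed for Mvk are the whole gap between Mvk and its neighbour Mmab, which is transcribed away from it on the other strand (chr5:114431034-114444060). The pair is known to be driven from this shared stretch.

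Some libraries stood apart, and their values are given beside the results they touch. Total counts lay between 6398335 (Chow replicate 4) and 10874955 (Chow replicate 2). A smooth trend in GC content and transcript length accounted for 46% of the variance over genes of Chow replicate 2's deviations. In the other 9 libraries it accounted for 0.762% to 11.5%. These shares may include differences between the groups. TM5614 replicate 2 held 3578 CPM (reads scaled by edgeR to a common library total) over 8 skeletal muscle markers and TM5614 replicate 3 held 58.9, against at most 5.72 elsewhere. Hepatocyte markers were present in all libraries, with 0 of 8 called between the groups and a summed level of 110729 to 127582 CPM in Chow and 102615 to 118727 CPM in TM5614.

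Transcripts of 8 of the 9 genes were lower in TM5614 liver at an adjusted p under 0.05 (edgeR quasi-likelihood test, Benjamini-Hochberg over all genes tested), where 2.77% of the 11092 genes were called lower, 1.73% higher and 4.50% in either direction. None of the 9 was called higher. Idi1, the gene that missed the threshold, had a lower estimate too. The median log2 fold change of the 9 was −2.12, beside 0.01 over all genes tested. In 8 of the 9 genes every TM5614 library lay below every Chow library, which held for 4.87% of all genes tested. The 9 genes together gave 563 to 1096 CPM in Chow and 191 to 284 CPM in TM5614, so the groups did not overlap. In whole liver, fewer cells of a type and less RNA per cell cannot be told apart.

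**Figure D1:**
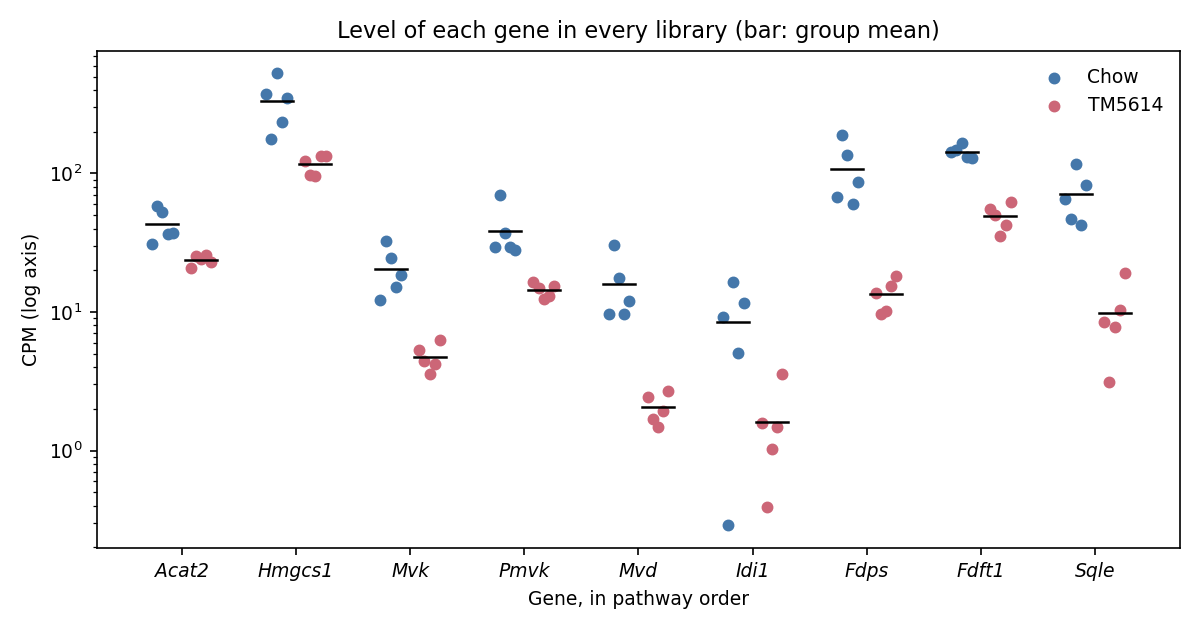
CPM of each of the 9 genes in every library on a log axis, with Chow in blue, TM5614 in red and a bar at each group's mean (5 libraries per group). The groups are apart for all genes but Idi1, where Chow replicate 2 lies at 0.289 CPM, under all 5 TM5614 libraries.

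The pathway opens with Acat2 (chr17:12942890-12960747), the cytosolic thiolase that joins acetyl-CoA units to acetoacetyl-CoA. Its level was 31, 58.1, 53, 36.3 and 37.3 CPM in Chow replicates 1 to 5, and 20.8, 25.2, 24.2, 25.9 and 23 CPM in TM5614 replicates 1 to 5. The groups did not overlap, and the TM5614 libraries lay close together. Acat2 fell by 44.8%, from 43.1 ± 11.7 to 23.8 ± 2.01 CPM (SD, n = 5), a log2 fold change of −0.86 with an SE of 0.17 (edgeR adjusted p = 0.0149), the smallest change among the 9. Of the 75-base windows of its transcript, 40.7% also occur in Acat3, a near-identical neighbour, so reads can be split between them. Acat3 had 187 ± 24.7 CPM in Chow and 157 ± 11.6 CPM in TM5614 (log2 fold change −0.25, edgeR adjusted p = 0.233). Tcp1, which overlaps Acat3 on the opposite strand, shares 240 of the 2176 windows of Acat2 and 500 of the 2070 of Acat3. Tcp1 went up from 121 ± 5.41 to 158 ± 13.5 CPM (log2 fold change 0.38, edgeR adjusted p = 0.0429). Its part in the reads counted for Acat2 and Acat3 was not tested. The log2 ratio of Acat2 to Acat3 was lower by 0.57 in TM5614 (−2.14 ± 0.28 in Chow, −2.71 ± 0.15 in TM5614, two-sided exact permutation p = 0.00794, the smallest that 5 against 5 libraries allow), a comparison chosen after the values were seen.

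Hmgcs1 (chr13:119690379-119708260), the cytosolic HMG-CoA synthase, had the highest counts of the 9. Its level was 372, 178, 528, 234 and 348 CPM in Chow and 122, 97.2, 95.6, 133 and 133 CPM in TM5614. Chow replicate 3 was the highest and Chow replicate 2 the lowest of the Chow libraries, and the groups did not overlap. Hmgcs1 fell by 65%, from 332 ± 136 to 116 ± 18.6 CPM (SD, n = 5; log2 fold change −1.51, SE 0.25, edgeR adjusted p = 0.00578). Of its 75-base windows 12.2% lie on an antisense transcript, Gm48342, which was not analysed here.

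Mevalonate is phosphorylated first by mevalonate kinase, Mvk (chr5:114444269-114460591), and then by phosphomevalonate kinase, Pmvk (chr3:89454541-89469013). Mvk had 12.2, 32.6, 24.4, 15.2 and 18.5 CPM in Chow and 5.31, 4.41, 3.55, 4.23 and 6.26 CPM in TM5614. It fell by 76.9%, from 20.6 ± 8.09 to 4.75 ± 1.05 CPM (log2 fold change −2.12, SE 0.27, edgeR adjusted p = 0.00123). Pmvk had 29.4, 69.4, 37.1, 29.6 and 28.2 CPM in Chow and 16.5, 14.8, 12.4, 13 and 15.5 CPM in TM5614. Both genes were highest in Chow replicate 2, and in both the groups were apart. Pmvk fell by 62.8%, from 38.7 ± 17.5 to 14.4 ± 1.72 CPM (log2 fold change −1.43, SE 0.24, edgeR adjusted p = 0.00637). Without Chow replicate 2 the Chow mean of Pmvk was 31.1 ± 4.04 CPM (n = 4), and the groups were still apart. No 75-base window of either transcript was found in another annotated gene. Mmab, which shares the printed stretch with Mvk and encodes the enzyme that makes adenosylcobalamin, went from 27.5 ± 6.28 to 11.5 ± 2.54 CPM (log2 fold change −1.26, edgeR adjusted p = 0.00346), and was looked up after its values were seen.

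The next enzyme, mevalonate diphosphate decarboxylase, encoded by Mvd (chr8:122433601-122443422), makes isopentenyl diphosphate. Mvd had 9.7, 30.4, 17.5, 9.66 and 12.1 CPM in Chow and 2.44, 1.69, 1.49, 1.94 and 2.67 CPM in TM5614. The lowest Chow library was still over 3 times the highest TM5614 library, although the TM5614 values rest on only 13 to 26 reads each. Mvd fell by 87.1%, from 15.9 ± 8.73 to 2.05 ± 0.498 CPM (log2 fold change −2.95, SE 0.35, edgeR adjusted p = 0.000793).

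Idi1 (chr13:8885501-8892451), the isomerase that turns isopentenyl diphosphate into dimethylallyl diphosphate, had the lowest counts and the widest spread. Its reads numbered 76, 3, 158, 32 and 126 in Chow and 11, 3, 9, 13 and 35 in TM5614, or 9.22, 0.289, 16.5, 5.07 and 11.6 CPM against 1.58, 0.389, 1.03, 1.49 and 3.59 CPM. Chow replicate 2 lay below every TM5614 library, and the other 4 Chow libraries lay above all of them. The log2 fold change was −2.36 with an SE of 0.72 and a 95% interval from −4.03 to −0.70 (edgeR adjusted p = 0.0945), so Idi1 was not called. The interval is not part of the edgeR test and is wider than that test's unadjusted p of 0.00648 implies. Without Chow replicate 2 the log2 fold change was −2.69 (edgeR adjusted p = 0.00236). Over 20 other settings Idi1 kept a lower estimate, from −2.92 to −1.98, and passed the threshold in 7. Its close copy Idi2 had 0 reads in all 10 libraries. Of the 75-base windows of Idi1, 29.1% occur in 5 other annotated genes, chiefly Gm13502 (610 of 2953 windows).

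Fdps (chr3:89093588-89101959) encodes farnesyl diphosphate synthase, whose product is the branch point towards sterols, prenylated proteins, dolichol and ubiquinone. Its level was 67.1, 189.9, 135, 60.5 and 86.1 CPM in Chow and 13.8, 9.73, 10.2, 15.5 and 18.3 CPM in TM5614. All 5 Chow libraries were over 3 times the highest TM5614 library. Fdps fell by 87.4%, from 108 ± 54.4 to 13.5 ± 3.61 CPM (log2 fold change −2.99, SE 0.33, edgeR adjusted p = 0.00049). This was the lowest estimate of the 9 with all libraries, whereas without Chow replicate 2 Sqle was lower (−2.96 against −2.69 for Fdps). Of its 75-base windows 80.4% also occur in other annotated genes, chiefly Gm43738, which overlaps it on the same strand and was not analysed here.

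Fdft1 (chr14:63145150-63179578), squalene synthase, takes the first step committed to sterols. It had 143, 147, 166, 131 and 130 CPM in Chow and 55.4, 50.5, 35.2, 42.5 and 62.5 CPM in TM5614. The Chow libraries differed by at most 1.28 times, the narrowest Chow spread of the 9 genes. Fdft1 fell by 65.6%, from 143 ± 14.6 to 49.2 ± 10.7 CPM (log2 fold change −1.54, SE 0.15, edgeR adjusted p = 0.00034), with the lowest p of the 9. Its 3′ end shares 774 exonic bases with Ctsb on the opposite strand, and without strand the reads there cannot be told apart. Ctsb, the lysosomal protease cathepsin B, had 552 ± 38.1 CPM in Chow and 487 ± 65.1 CPM in TM5614 (log2 fold change −0.18, edgeR adjusted p = 0.377).

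Sqle (chr15:59315077-59331192), squalene epoxidase, closes the sequence and is a known control point of the pathway. Its level was 65.6, 46.8, 118, 42.6 and 82.2 CPM in Chow and 8.47, 3.11, 7.8, 10.4 and 19.2 CPM in TM5614. TM5614 replicate 5 was 6.16 times TM5614 replicate 2, the widest spread within TM5614 after Idi1, but all 5 lay below the Chow libraries. Sqle fell by 86.1%, from 71.1 ± 30.7 to 9.8 ± 5.9 CPM (log2 fold change −2.85, SE 0.41, edgeR adjusted p = 0.00223).

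**Figure D2:**
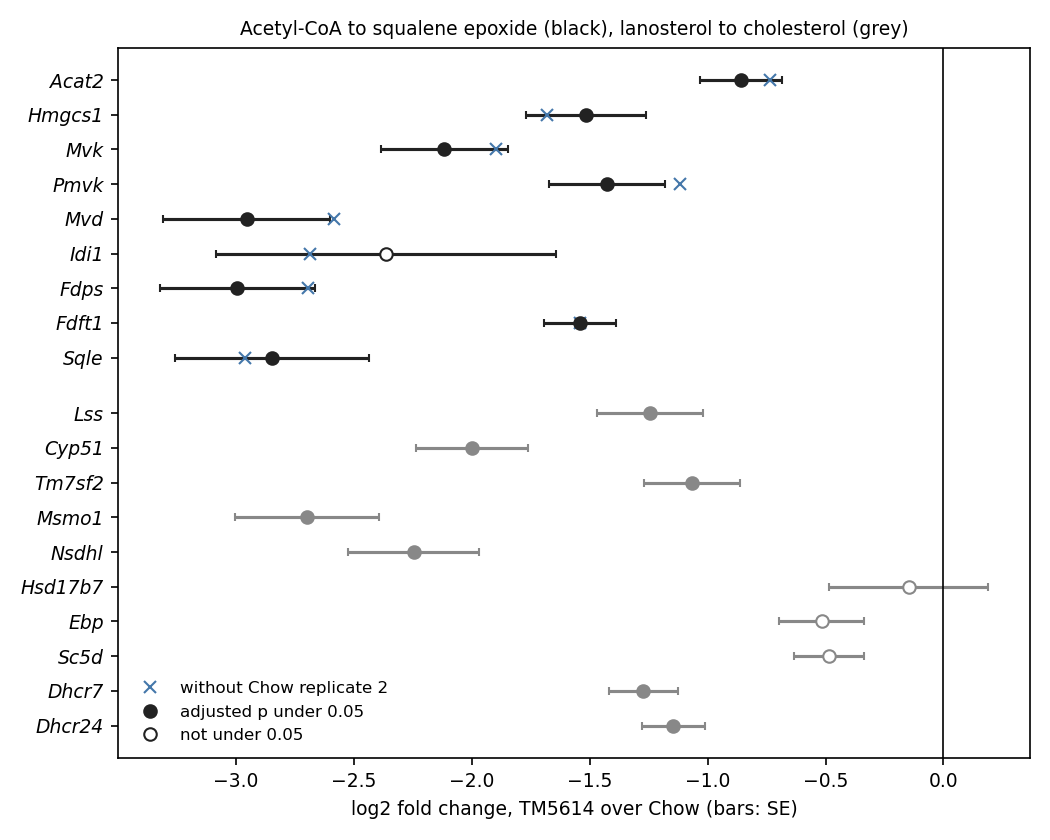
Log2 fold change of TM5614 over Chow with its SE for the 9 genes (black) and for 10 genes from lanosterol synthesis to cholesterol (grey), filled where the edgeR adjusted p was under 0.05, with blue crosses for the 9 genes without Chow replicate 2. The 9 black estimates run from −2.99 (Fdps) to −0.86 (Acat2).

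The size of the fall was not the same along the pathway. For each of the 36 pairs of the 9 genes, the log2 ratio of CPM in each library was compared between the groups (two-sided exact permutation test, Benjamini-Hochberg over the 36). The ratio differed in 16 pairs, and in 23 pairs without Chow replicate 2, with all 16 among them. Without TM5614 replicate 2, the library with the muscle markers, it differed in 12 pairs. The log2 ratio of Fdps to Fdft1, the next enzyme, fell by 1.32 (exact permutation, adjusted p = 0.019), and Sqle fell more than Fdft1 by 1.38 (exact permutation, adjusted p = 0.019). Early in the pathway, the log2 ratio of Mvk to Pmvk fell by 0.68, and Mvd fell more than Pmvk by 1.38 (exact permutation, adjusted p = 0.019 for each).

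Ordered by log2 fold change with all libraries, the genes ran Fdps, Mvd, Sqle, Idi1, Mvk, Fdft1, Hmgcs1, Pmvk and Acat2. Of the 8 neighbouring pairs in this order, only Sqle and Idi1 passed the threshold (exact permutation, adjusted p = 0.019), and with a pseudocount of 0.5 in place of 2 that pair missed it (exact permutation, adjusted p = 0.129). Fdps and Mvd differed by 0.17 (exact permutation, adjusted p = 0.248), and Pmvk and Acat2 by 0.51 (exact permutation, adjusted p = 0.0602). Fdps and Sqle differed by 0.07 (exact permutation, adjusted p = 0.916), and by 0.43 without Chow replicate 2 (exact permutation, adjusted p = 0.259). The top of the order rested on that library, since without it the estimates ran Sqle (−2.96), Fdps (−2.69), Idi1 (−2.69) and Mvd (−2.58). Fdps, Mvd and Sqle were not told apart, whereas Fdps and Acat2 at the ends of the order differed by 2.06 (exact permutation, adjusted p = 0.019).

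**Figure D3:**
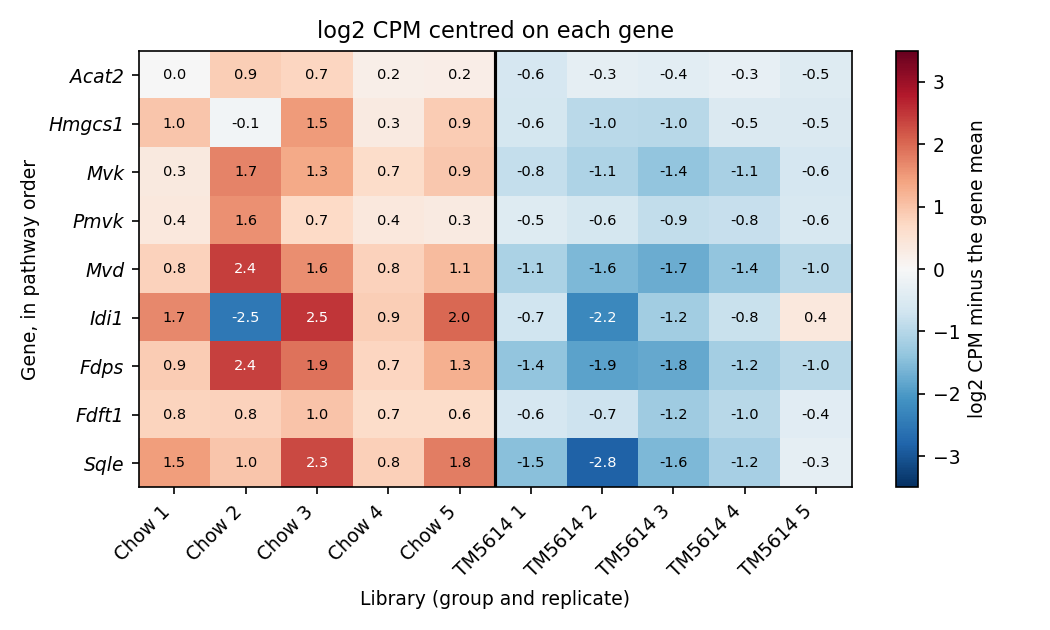
Log2 CPM of each gene minus its mean over the 10 libraries, with genes in pathway order as rows and libraries as columns. Red is above and blue below the gene's mean, and Idi1 is the row in which a Chow library (replicate 2, −2.5) is as low as the TM5614 libraries.

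Within the groups the genes did not all peak in the same mouse. In Chow, replicate 2 was the highest library for 5 genes and replicate 3 for the other 4. In TM5614, replicate 5 was the highest for 6 genes and replicate 3 the lowest for 5. The deviation of Chow replicate 2 from the mean of the other 4 Chow libraries went from 1.34 on the log2 scale for Mvd, the gene with the highest GC content (59%), to −1.0 for Hmgcs1 (43.1%) and −4.27 for Idi1, the lowest (41.9%). In between, the values did not follow the order of GC content, with 1.19 for Fdps (50.6%), 0.05 for Fdft1 (51.8%), 0.59 for Acat2 (49.6%) and −0.62 for Sqle (48.6%). After a correction for GC content and length, Idi1 in Chow replicate 2 was still at −0.63 on the log2 CPM scale, against 2.46 to 4.10 in the other Chow libraries. With the same correction inside the edgeR fit Idi1 had an adjusted p of 0.0483.

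**Figure D4:**
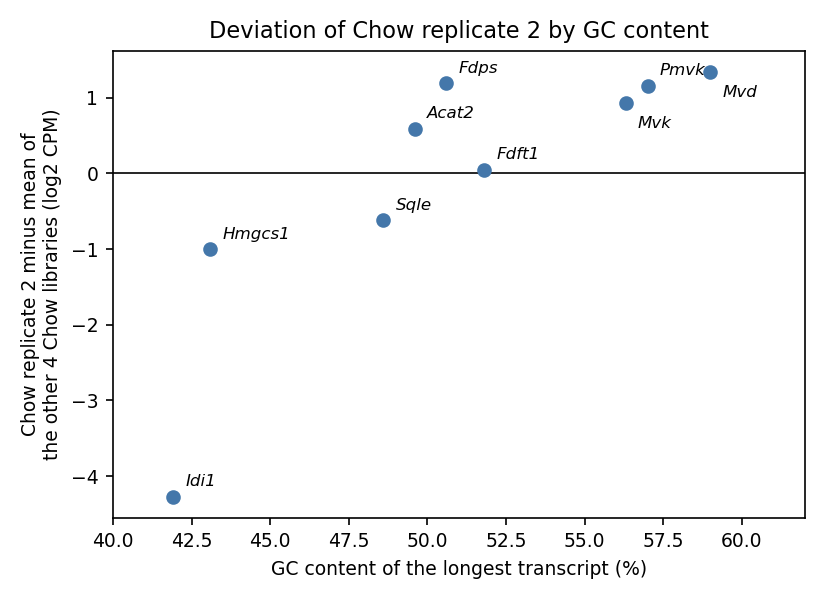
Log2 CPM of Chow replicate 2 minus the mean of the other 4 Chow libraries (vertical axis) against the GC content of each gene's longest transcript in percent (horizontal axis), a point per gene. The genes above 55% GC (Mvk, Pmvk and Mvd) lie at 0.93 to 1.34, and the genes below 45% (Hmgcs1 and Idi1) lie at −1.0 and −4.27. The 4 genes between them lie from −0.62 (Sqle) to 1.19 (Fdps), out of the order of GC content.

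Levels per transcript length were read from the deposited FPKM values. In Chow, Hmgcs1 was the highest at 91.8 ± 37.8 FPKM, followed by Fdps (72.9 ± 36.9), Fdft1 (38.3 ± 4.02), Sqle (25.6 ± 11.1), Pmvk (25.4 ± 11.5), Acat2 (20.5 ± 5.6), Mvk (11.8 ± 4.63), Mvd (8.41 ± 4.63) and Idi1 (2.94 ± 2.14), all SD with n = 5. The ranges of all 8 neighbouring pairs in this order overlapped. In TM5614, Hmgcs1 stayed highest at 32.1 ± 5.33 FPKM, and then came Fdft1 (13.1 ± 2.86), Acat2 (11.3 ± 0.938), Pmvk (9.45 ± 1.12), Fdps (9.12 ± 2.49), Sqle (3.52 ± 2.13), Mvk (2.71 ± 0.605), Mvd (1.08 ± 0.268) and Idi1 (0.557 ± 0.416). Here 2 of the 8 neighbouring pairs did not overlap, Hmgcs1 over Fdft1 and Mvk over Mvd. Fdps moved from position 2 to 5 and Acat2 from 6 to 3.

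**Figure D5:**
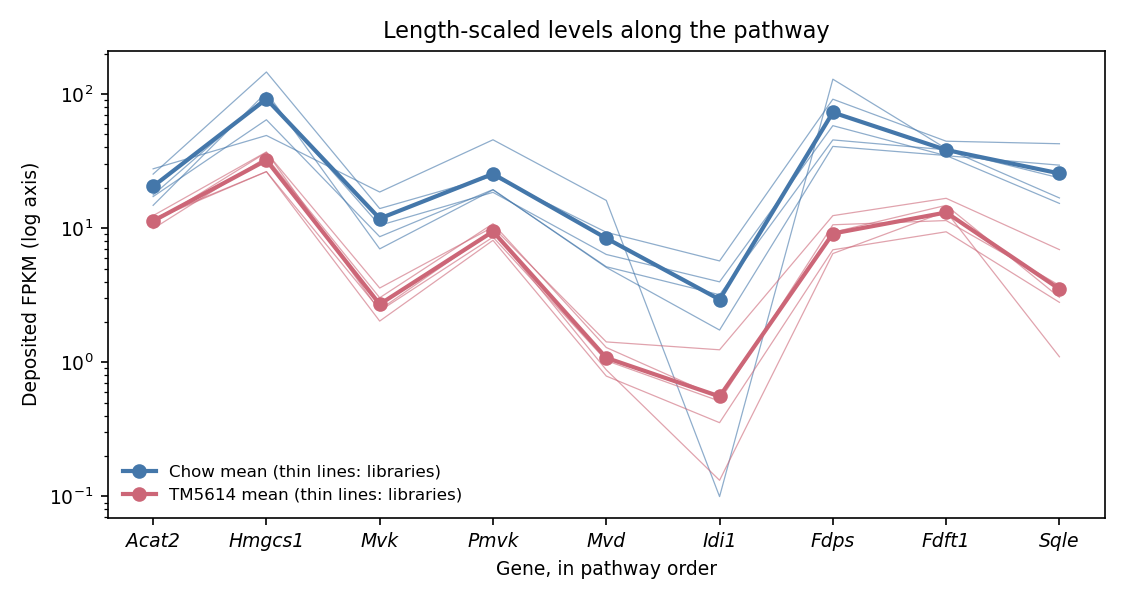
Deposited FPKM of the 9 genes in pathway order on a log axis, as group means (thick lines) and single libraries (thin lines). The Chow line peaks at Hmgcs1 (91.8) and Fdps (72.9), and the TM5614 line peaks at Hmgcs1 (32.1) and Fdft1 (13.1).

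Of the 10 genes that carry squalene epoxide on to cholesterol, 7 were lower in TM5614, 0 were higher and the median log2 fold change was −1.19. The largest falls were in Msmo1, a sterol methyl oxidase (277 ± 75.8 to 42.6 ± 20.6 CPM, log2 fold change −2.70, edgeR adjusted p = 0.000602), Nsdhl, a sterol dehydrogenase (−2.25, adjusted p = 0.000945), Cyp51, lanosterol demethylase (−2.0, adjusted p = 0.00074), and Dhcr7, which makes cholesterol from 7-dehydrocholesterol (−1.27, adjusted p = 0.000676). Ebp (−0.52, adjusted p = 0.139), Sc5d (−0.49, adjusted p = 0.0956) and Hsd17b7 (−0.15, adjusted p = 0.83) did not pass.

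Genes next to the pathway, which do not themselves make sterols, were counted as well. Of 16 genes of the isoprenoid branches (protein prenylation, dolichol and ubiquinone synthesis), 0 were called by edgeR, 3 had an unadjusted p under 0.05 (Dhdds, Nus1 and Rabggta), and the log2 fold changes ranged from −0.56 to 0.40 with a median of 0.08. Acat1, the mitochondrial counterpart of Acat2, had a log2 fold change of 0.34 (edgeR adjusted p = 0.127). Of 4 genes that supply cytosolic acetyl-CoA, 1 was called, Acss2, the acetyl-CoA synthetase that uses acetate (133 ± 9.64 to 71.8 ± 8.45 CPM, log2 fold change −0.89, edgeR adjusted p = 0.000889). Slc25a1, the mitochondrial citrate carrier, was at −0.85 (edgeR adjusted p = 0.0596).

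The SREBP machinery holds the factors that switch these genes on and the proteins that hold them back. Of its 7 genes 3 were lower and 1 was higher. Srebf2, which encodes SREBP-2, went from 61.9 ± 12.7 to 30.3 ± 5.58 CPM (log2 fold change −1.03, edgeR adjusted p = 0.00471), and Srebf1 from 111 ± 27.2 to 30.9 ± 6.81 CPM (−1.84, adjusted p = 0.000402). Insig1 and Insig2 both encode proteins that retain the SREBPs in the endoplasmic reticulum, but they moved in opposite directions. Insig1, itself a known SREBP target, went from 232 ± 59.7 to 75.5 ± 14.6 CPM (−1.62, adjusted p = 0.000945), and Insig2 went up from 151 ± 42.2 to 511 ± 95.9 CPM (1.76, adjusted p = 0.000549). Of 5 genes of the ubiquitin ligases that degrade sterol enzymes 0 were called.

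Among the 11083 other genes tested, the pattern nearest to the mean of the 9 over the 10 libraries was that of Cyp51, with a root-mean-square difference of 0.15 on the log2 scale. It was followed by C730036E19Rik (0.30), Nsdhl (0.31), Insig1 (0.31) and Fasn (0.35), which encodes fatty acid synthase. The 9 genes themselves lay between 0.30 (Fdft1) and 1.27 (Idi1) from their mean, so Cyp51 was nearer to it than any of them. Without Chow replicate 2 Cyp51 was still the nearest and Insig1 came next. C730036E19Rik, Nsdhl and Fasn then moved to positions 6, 7 and 11.

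Other gene groups moved between the same mice. For comparison, 5379 of the 11092 genes tested had lower estimates, 2.77% were called lower and 1.73% were called higher. Of 11 clock genes that peak with Dbp, 6 were lower in TM5614 and all 11 had lower estimates, with summed levels of 908 to 1135 CPM in Chow and 423 to 634 CPM in TM5614, led by Usp2 (log2 fold change −2.36), Per3 (−2.27), Ciart (−2.08) and Dbp (−1.99). Of 4 tested clock genes that peak with Arntl, 2 were higher (Arntl 2.76 and Clock 0.98), with summed levels over the 5 listed of 43.3 to 78.2 CPM in Chow and 95.4 to 153 CPM in TM5614. Times of tissue collection are not in the labels, and the part of the clock genes in the falls was not tested. Of 10 Kupffer cell and macrophage markers 0 were called and 10 had lower estimates, with a median of −0.43 and summed levels of 83.4 to 264 CPM in Chow and 83.2 to 178 CPM in TM5614, and none was at 0 in all libraries. Their part was not tested. For endothelial, stellate cell and cholangiocyte markers 0 were called of 7, 7 and 3 tested, with median log2 fold changes of 0.01, 0.42 and 0.27. Of the 7 stellate cell markers 1 had a lower estimate, with summed levels of 161 to 286 CPM in Chow and 257 to 527 CPM in TM5614. The largest estimate was that of Des (2.44 ± 1.29 to 54.7 ± 113 CPM, log2 fold change 4.47, edgeR adjusted p = 0.0956), and the part of these markers was not tested. Of 9 periportal markers 1 was higher (Cdh1), and of 10 pericentral markers 1 was higher (Axin2) and 3 were lower (Cyp1a2, Gulo and Lect2), whose part was not tested either. With both libraries numbered 2 left out, all 9 genes of the early pathway were called lower.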

How the data were processed

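Liver poly(A) RNA was sequenced by the authors as 75-base single-end reads, aligned to mm10 with STAR and analysed in DESeq2, and HOMER is listed in the submitters' processing notes without its role. The deposited table of raw counts per gene was the base of all tests, and the deposited FPKM table, which the authors scaled by depth and length, was used only for levels between genes. The deposited rlog values and the authors' own comparison table (fold changes and p-values) were not used. How strand was treated in counting is not given in the sources used here. Groups and replicate numbers came from the sample titles, and each library had its own mouse number. The closest pair of libraries within a group differed by 7.5 in chi-square per degree of freedom, so none was counted as a duplicate.

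Counts were tested with edgeR 4.0.16 (R 4.3.3; filterByExpr, TMM scaling, quasi-likelihood F test, Benjamini-Hochberg over 11092 genes, threshold 0.05). CPM used TMM-scaled totals, and log2 CPM used a prior count of 2. Pairs of genes were compared by exact permutation over all 252 splits of 10 libraries into 5 and 5, with 0.00794 as the smallest p. Precision is limited by 5 mice per group and, for genes of few reads, by counting error. Alternatives used DESeq2 1.42.0, limma 3.58.1 (voom), other scalings and filters, offsets for GC content and length, a replicate block and leaving out each library. Scripts were tested on simulated data. Gene positions and shared windows came from GENCODE M21 (GRCm38), windows being exact 75-base matches to transcripts of other genes on either strand. The 9 genes and all lists were chosen with earlier results of these data known. From each list the called genes were named, at most 4 of largest change, with Srebf1, Srebf2, Insig1, close copies of the 9 (except an item that is not reported here) and the 5 nearest patterns. Genes that missed the threshold were named with their values after these were seen.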

Additional observations from a re-analysis of the deposited data

Results flagged for a closer look

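Pmvk in Chow replicate 2 stood at 69.4 CPM, far above the other 4 Chow libraries (28.2 to 37.1 CPM), with a gap to the nearest of 0.784 of the group's range. Among 20 groups of 5 libraries examined, it was the only value to stand out in this way. The groups were the 9 genes and their sum, in Chow and in TM5614. About 1 in 20 such groups would do so by chance. Chow replicate 2 was also the highest library for 4 further genes of the early pathway and the library whose deviations followed GC content and length. Without it Pmvk remained lower in TM5614, with the groups apart.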

How the results depend on the processing

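In 264 recomputed values, 249 kept their direction and their side of the threshold or, for a count, stayed within 1.5 times of it, 15 did not and 0 reversed. The count of genes called over the whole table was 499 and moved with the method, to 908 with DESeq2, to 1386 with limma-voom and sample weights and, in an alternative chosen after seeing the data, to 1230 with both libraries numbered 2 left out. Leaving out single libraries gave 235 (without TM5614 replicate 3) to 1031 (without Chow replicate 2), with 293 without Chow replicate 3, 331 without TM5614 replicate 1 and 259 without TM5614 replicate 4. Of the 9 genes 8 or 9 were called in every setting, and Idi1 alone changed side, with an adjusted p of 0.0168 in DESeq2 and 0.0109 in limma-voom. A filter at 10 reads removed it. The highest adjusted p of Acat2 over its 21 alternatives was 0.0482. The pairs of genes past the threshold ranged from 12 (without TM5614 replicate 2) to 23 (without Chow replicate 2). Replicate numbers did not pair the samples (correlations of same-numbered libraries from 0.0316 to 0.318, with 1 of 5 closest to its own number). With the replicate block 555 genes were called, and Idi1 had an adjusted p of 0.0172. Depth limits Mvd and Idi1 most.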
